A study of Homo sapiens with 18 samples.

Results

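In MOLM-13 cells, 6315 of 30670 H3K27ac loci lay away from promoters and carried no listed interval of H3K4me1 or H3K4me3. Overlapping H3K27ac intervals were merged into loci. A locus was kept if it was under 10 kb, more than 2 kb from every transcription start site (TSS) of a protein-coding gene, and shared no base with an H3K4me1 or H3K4me3 interval. Of 15817 distal loci under 10 kb, 39.9% met these conditions, and they are called H3K4me-negative loci here. The name means that no interval was listed, since H3K4 methylation counts exist only inside listed intervals and weaker signal at these loci was not measured. Another 6272 distal loci carried H3K4me1 without H3K4me3 (H3K4me1-positive) and 3230 carried H3K4me3 (H3K4me3-positive).

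MOLM-13 is a human acute myeloid leukaemia cell line with a rearranged KMT2A gene. The cells received 100 nM PR-957, also named ONX-0914, which inhibits the immunoproteasome, or the diluent DMSO for 72 h by the sample labels, whereas a legend of the study names a shorter exposure. Cut&Tag, in which an antibody brings a transposase to a histone mark, was run for H3K27ac, H3K27me3, H3K4me1 and H3K4me3 with 2 libraries per treatment and mark, and 2 IgG samples are not analysed here. All groups are the same line, and nothing states whether the libraries came from separate cultures, so p-values measure only the spread between these libraries. Total counts were between 9885836 and 14165777 in the H3K27ac libraries and between 10032503 and 12047958 in the H3K27me3 libraries. H3K27ac intervals lay within 2 kb of a TSS at 9 of 9 myeloid marker genes and at 0 of 4 T-cell, 0 of 3 megakaryocyte and 0 of 5 non-blood markers. They were also present at 1 of 4 erythroid markers, EPOR, and at the B-cell markers PAX5 and CD79A.

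Acetylation of histone H3 at lysine 27 is placed by the acetyltransferases EP300 and CREBBP and marks active promoters and enhancers. At enhancers it usually accompanies H3K4me1, which the methyltransferases KMT2C and KMT2D deposit, whereas H3K4me3 is typical of active start sites. H3K27me3 is the mark of Polycomb repressive complex 2 and uses the same lysine, so a single histone tail cannot carry both at that residue.

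The sequences of 8 of these loci are shown to give the DNA behind the values. Each is 240 bases of the plus strand of hg38 about the middle of the locus, and capitals mark matches to the motifs searched. The first set, near TWIST2, ATP9B, PPIAL4G and RBMS3, is from the loci with the highest H3K27ac level in DMSO. The second, near PLCD4 and RNF144A, is from the loci with the smallest p for the PR-957 comparison, and the third, near LHX3 and LMX1B, from those with the highest H3K27me3 level. The LHX3 window lies outside the H3K27me3 interval that gave its level, which reaches only the edge of that locus.
chr2:238778434-238778673 (TWIST2): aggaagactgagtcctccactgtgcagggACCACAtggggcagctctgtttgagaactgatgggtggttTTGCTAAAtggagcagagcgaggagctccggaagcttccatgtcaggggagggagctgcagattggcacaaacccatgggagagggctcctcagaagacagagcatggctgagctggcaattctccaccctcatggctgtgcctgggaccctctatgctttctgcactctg
chr18:79201147-79201386 (ATP9B): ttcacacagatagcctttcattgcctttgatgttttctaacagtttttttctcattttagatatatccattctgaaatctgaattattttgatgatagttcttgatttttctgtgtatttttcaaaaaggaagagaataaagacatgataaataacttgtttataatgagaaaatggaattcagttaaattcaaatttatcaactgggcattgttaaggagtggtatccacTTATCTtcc
chr1:148522893-148523132 (PPIAL4G): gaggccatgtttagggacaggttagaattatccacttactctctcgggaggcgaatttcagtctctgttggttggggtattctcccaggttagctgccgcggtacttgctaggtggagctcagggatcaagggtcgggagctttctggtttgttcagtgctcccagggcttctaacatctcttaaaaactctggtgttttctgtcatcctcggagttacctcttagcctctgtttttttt
chr3:28952652-28952891 (RBMS3): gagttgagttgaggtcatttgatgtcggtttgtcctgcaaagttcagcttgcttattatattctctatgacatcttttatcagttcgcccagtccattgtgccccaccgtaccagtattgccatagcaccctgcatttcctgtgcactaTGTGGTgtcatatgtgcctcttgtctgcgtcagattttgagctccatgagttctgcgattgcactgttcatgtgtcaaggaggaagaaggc
chr2:218643374-218643613 (PLCD4): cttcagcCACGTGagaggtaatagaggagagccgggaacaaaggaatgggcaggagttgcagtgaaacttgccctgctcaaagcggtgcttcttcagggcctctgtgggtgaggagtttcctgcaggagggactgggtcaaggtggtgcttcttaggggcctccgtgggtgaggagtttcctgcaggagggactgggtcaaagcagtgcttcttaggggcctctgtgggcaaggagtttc
chr2:7028770-7029009 (RNF144A): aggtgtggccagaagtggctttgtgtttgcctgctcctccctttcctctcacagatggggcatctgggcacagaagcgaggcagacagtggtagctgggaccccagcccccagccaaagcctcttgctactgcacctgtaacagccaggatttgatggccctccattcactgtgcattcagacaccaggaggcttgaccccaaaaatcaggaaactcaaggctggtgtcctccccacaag
chr9:136175886-136176125 (LHX3): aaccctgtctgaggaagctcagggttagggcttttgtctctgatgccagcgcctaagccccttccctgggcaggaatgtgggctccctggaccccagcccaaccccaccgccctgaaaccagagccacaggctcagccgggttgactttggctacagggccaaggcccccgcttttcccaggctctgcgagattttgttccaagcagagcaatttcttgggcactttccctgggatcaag
chr9:126661810-126662049 (LMX1B): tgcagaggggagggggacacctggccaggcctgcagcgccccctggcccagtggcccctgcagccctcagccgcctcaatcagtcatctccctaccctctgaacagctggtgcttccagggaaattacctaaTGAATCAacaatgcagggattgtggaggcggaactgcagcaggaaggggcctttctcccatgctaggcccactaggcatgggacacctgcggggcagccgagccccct

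The searched motifs were AP-1 (TGANTCA), ETS (GAGGAAGT), RUNX (TGTGGT), CEBP (TTGCNNAA), AGATAA for the GATA factors, the antioxidant response element or ARE (TGACNNNGC), the E-box (CACGTG) and CTCF by name, each on both strands. The window near TWIST2 held a RUNX and a CEBP match, ATP9B a GATA match, RBMS3 a RUNX match, PLCD4 an E-box and LMX1B an AP-1 match. The other 3 windows held no match. Windows of this length held a RUNX match at 15.2% of all 30670 H3K27ac loci, CEBP at 8.69%, GATA at 7.39%, AP-1 at 7.004% and the E-box at 4.70%. A match is a description of the letters and not a site of binding. GC content differed widely among the shown windows, from 28.3% near ATP9B to 63.3% near LMX1B.

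The H3K4me-negative loci had a low H3K27ac level, and this level was not compared with the IgG samples. The level of a locus is the count of its widest interval as CPM, with the effective library size as the total, per kb of that interval. With DMSO the median level over the loci reached 1.11 in replicate 1 and 1.09 in replicate 2, and with PR-957 it reached 1.17 and 1.20. H3K4me1-positive distal loci had medians of 1.46, 1.40, 1.46 and 1.47 in the same libraries. The median was thus lower without H3K4me1 in 4 of 4 libraries, at 0.765, 0.776, 0.804 and 0.820 of the H3K4me1-positive value. The exact two-sided sign-flip permutation test over libraries gave p = 0.125, the smallest that 4 libraries allow. H3K4me3-positive distal loci were higher again, with a mean of the library medians of 2.34 ± 0.0242 (SD, n = 4) against 1.14 ± 0.0525 (SD, n = 4) for the H3K4me-negative loci. The classes overlapped, and 1361 H3K4me-negative loci (21.6%) lay above the median H3K4me1-positive locus. From the lowest to the highest, the level averaged over 4 libraries ran from 0.238 to 7.22 CPM per kb.

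The depth behind a single locus was small. The median count of the widest interval was 33 and 25 in DMSO and 28 and 38 in PR-957, against 41, 30, 32 and 44 at H3K4me1-positive loci. The median absolute log2 difference between the 2 libraries of a group was 0.36 in DMSO and 0.44 in PR-957 for H3K4me-negative loci, and 0.32 and 0.35 for H3K4me1-positive loci. All widest intervals of the H3K4me-negative loci together held 6.64% (95% Wilson interval 6.61 to 6.66) and 6.51% (6.48 to 6.54) of the counts over the widest intervals of all loci in DMSO. In PR-957 they held 6.86% (6.83 to 6.88) and 6.83% (6.81 to 6.85). These intervals cover counting error only.

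Most of these loci were simple peaks. A total of 4833 (76.5%) were made of 1 interval, against 57.8% of H3K4me1-positive loci, and 168 (2.66%) were made of 4 or more. The median width was 2369 bp, with quartiles of 1915 and 3102 bp. The level was higher with more intervals, from a median of 1.06 CPM per kb with 1 interval to 1.37 with 2, 1.53 with 3 and 1.76 with 4 or more. H3K4me1-positive loci had 1.25, 1.60, 1.86 and 2.31 at the same numbers of intervals, so the lower level was present at each of them.

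Their position relative to genes was close to that of other distal loci. The median distance to the nearest protein-coding TSS was 20.9 kb, against 18.8 kb for H3K4me1-positive loci, and 1041 loci (16.5%) lay more than 100 kb away, against 12.6%. Introns of protein-coding genes held 3278 loci (51.9%), intergenic DNA 1890 (29.9%) and introns of noncoding genes 610 (9.66%). Coding exons held 194 (3.07%), against 0.957% of H3K4me1-positive loci. Within 2 kb of the start of any annotated gene, noncoding genes included, were 731 (11.6%), against 12.5%. In all, 83 loci (1.31%) had a near-identical copy elsewhere in hg38, against 1.12%.

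The nearest H3K4me1 interval was usually far outside the locus. Its median distance was 18.7 kb, with quartiles of 6.20 and 53.5 kb, and 306 loci (4.85%) had an H3K4me1 interval within 1 kb. For 1665 loci (26.4%) it was more than 50 kb away. H3K4me3 was farther still, at a median of 46.9 kb. The promoters of the nearest genes were also less often marked as active. An H3K4me3 interval lay within 2 kb of any TSS of the nearest gene for 4468 loci (70.8%), against 84.2% for H3K4me1-positive loci. An H3K27me3 interval lay there for 2598 (41.1%), against 21.7%. These are shares of loci, and neighbouring loci share a nearest gene. A gene can count for both marks at different TSS.

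GC content was higher than at H3K4me1-positive loci and close to that of all H3K27ac loci. The medians were 53.9%, 48.1% and 52.8%, while the observed over expected frequency of CpG was 0.223 at H3K4me-negative and 0.221 at H3K4me1-positive loci, far from that of a CpG island. In windows of 1 kb about the middle, AP-1 matches were found at 23.04% of the loci, against 37.1% of H3K4me1-positive and 24.6% of all H3K27ac loci. For CEBP the shares were 28.0%, 41.7% and 30.9%, for ETS 7.08%, 11.0% and 8.25%, for GATA 25.5%, 36.8% and 27.5%, and for RUNX 54.6%, 60.5% and 49.2%. CEBPA, the ETS factor SPI1 and RUNX1 direct myeloid genes. ARE matches were at 40.03%, 39.8% and 38.6%, E-boxes at 18.6%, 15.04% and 18.2% and CTCF at 0.808%, 0.383% and 0.822%.

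The shares were also compared among loci of like base composition. Among loci of 50 to 55% GC, the GATA shares were 26.2% and 26.7% in the H3K4me-negative and H3K4me1-positive classes, and the E-box shares were 17.8% and 18.7%. AP-1 was still at 24.7% against 32.8%, ETS at 7.23% against 10.7%, RUNX at 55.3% against 61.5% and CEBP at 29.3% against 33.4%. AP-1 matches were fewer at H3K4me-negative loci in each of the 5 GC bins between 40 and 65%, from 30.1% against 43.2% in the lowest to 16.2% against 25.9% in the highest. Against all H3K27ac loci they were not fewer at higher GC, with 24.7% and 23.7% at 50 to 55%, 19.6% and 19.6% at 55 to 60%, and 16.2% and 15.9% at 60 to 65%.

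The loci were unevenly spread over the chromosomes. Chromosome 8 held 1189 of 6315 (18.8%), or 8.19 per Mb, while its share of the assembled length used here is 4.70%. It held 757 H3K4me1-positive loci (12.1%), 6.84% of H3K4me3-positive distal loci and 9.55% of all H3K27ac loci. By mark, chromosome 8 held 6.51% of H3K4me1, 4.33% of H3K4me3 and 7.71% of H3K27me3 loci. The next densest chromosomes were 19 with 4.66 per Mb, 22 with 4.605 and 20 with 4.00. Chromosome X held 15 loci, or 0.0961 per Mb. MOLM-13 is known to carry extra copies of chromosome 8; copy number was not measured, and its part in these counts was not tested.

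Along chromosome 8 the excess was large toward the end of the long arm. The bins of 5 Mb that start at 130, 135 and 140 Mb held 103, 78 and 118 H3K4me-negative loci, against 58, 8 and 39 H3K4me1-positive loci. Near the centromere, the bin that starts at 45 Mb held 90 against 30. By contrast, the bin that starts at 125 Mb and holds MYC, the transcription factor that drives growth, had 40 against 53. The median level of the loci was 1.24 CPM per kb on chromosome 8, and between 1.06 and 1.19 on each of the other autosomes. Of loci made of 4 or more intervals, 60 of 168 (35.7%) were on chromosome 8.

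Many H3K4me-negative loci lay near each other. With gaps of up to 20 kb joined, they formed 4237 runs, and 3133 loci (49.6%) stood alone, against 57.2% of H3K4me1-positive loci. Runs of 5 or more held 795 loci (12.6%), against 7.11% of H3K4me1-positive loci. The part of chromosome 8 in this difference was not tested. The longest runs, named here after their values were seen, were in single genes. A run of 17 loci covered 192 kb of GFRA2, a receptor for neurturin, at chr8:21659368-21851074, and 9 of its loci overlapped H3K27me3. A run of 13 was in LRFN2, a synaptic adhesion protein, at chr6:40469057-40577912. Another 13 were in TRAPPC9, a subunit of a vesicle transport complex, at chr8:139743705-139863594. The TRAPPC9 run had a median level of 2.03 CPM per kb, against 1.302 in GFRA2, and 0 of its loci overlapped H3K27me3. By nearest gene, SPIDR, also on chromosome 8, had 38 H3K4me-negative and 15 H3K4me1-positive loci, and TRAPPC9 37 and 13. LRFN2 had 34 and 3, and GLI2, a transcription factor of Hedgehog signalling, had 25 and 0.

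Overlap with the Polycomb mark was frequent. H3K27me3 intervals overlapped 876 H3K4me-negative loci (13.9%), against 1.91% of H3K4me1-positive, 5.23% of H3K4me3-positive and 7.78% of all H3K27ac loci. In 656 (10.4%) H3K27me3 covered at least 50% of the locus and in 305 (4.83%) the whole of it, against 1.42% and 0.702% at H3K4me1-positive loci. Overlap was more frequent at higher GC content, and the H3K4me-negative share was the highest of the 3 classes in each bin up to 60%. At 45 to 50% GC the shares were 5.44% and 0.542% for H3K4me-negative and H3K4me1-positive loci, at 50 to 55% 11.8% and 1.32%, and at 55 to 60% 19.5% and 6.03%. At 60 to 65% GC they were 24.3% and 17.3%, and the H3K4me3-positive share of 25.8% was above both. The share was 13.1% at loci of 1 interval and 23.8% at loci of 4 or more. Without chromosome 8 it was 13.6%. The counts come from populations of cells, so both marks on the same DNA molecule and marks in different cells cannot be told apart.

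**Figure D1:**
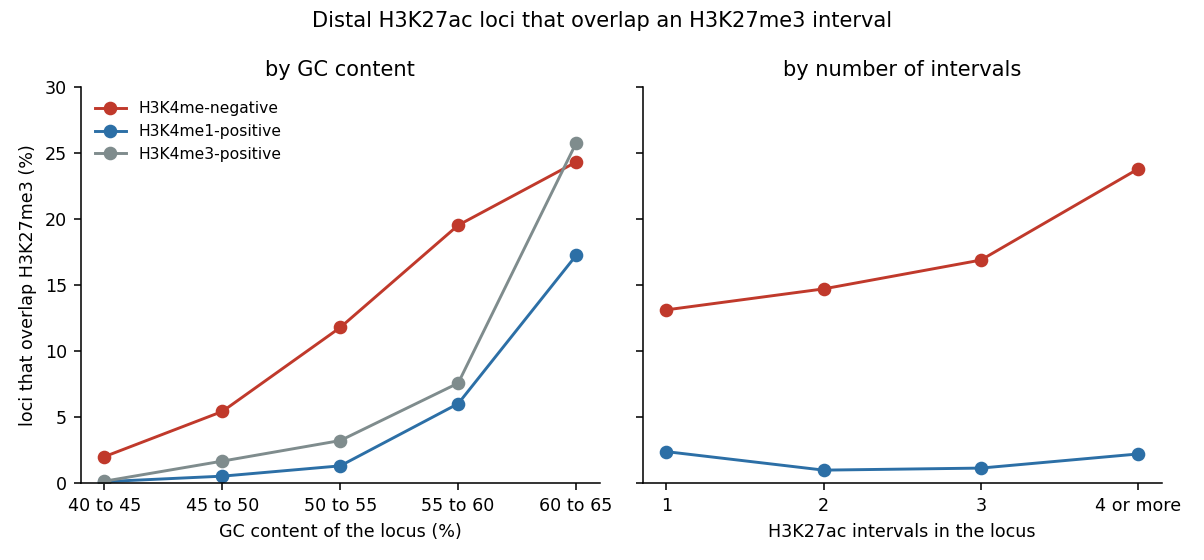
Share of distal H3K27ac loci that overlap an H3K27me3 interval, by GC content of the locus (left; 3 classes) and by the number of H3K27ac intervals in it (right; 2 classes). The H3K4me-negative share is above the H3K4me1-positive share in every bin, from 2.02% against 0.125% at 40 to 45% GC to 24.3% against 17.3% at 60 to 65% GC.

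The H3K27ac level was close with and without H3K27me3. The median level of the 876 loci was 1.08 and 1.07 CPM per kb in DMSO and 1.18 and 1.22 in PR-957. The other 5439 loci had 1.12, 1.09, 1.17 and 1.20. GC content did differ, with medians of 56.5% and 53.4%. Any promoter of the nearest gene carried H3K27me3 for 77.4% of the overlapped loci and 35.3% of the others. On the H3K27me3 side, these loci met 866 H3K27me3 loci with a median width of 3.15 kb, against 2.49 kb over all 13899.

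The 10 H3K4me-negative loci with the highest H3K27ac level in DMSO were a mixed set, of which 6 were intergenic and 0 overlapped H3K27me3. They were chosen by their DMSO values, a choice that by itself favours lower values in PR-957. The highest was chr2:238777522-238779535, in an intron of a noncoding gene and 68.5 kb from TWIST2, which encodes a transcription factor of mesenchyme. Its level was 6.10 and 7.97 CPM per kb in DMSO and 7.28 and 7.51 in PR-957. The groups overlapped, and the nearest H3K4me1 interval was 167 kb away. The second, chr18:79200703-79201830, was in an intron of ATP9B, a P4-type ATPase, with 5.71 and 6.26 in DMSO and 4.29 and 5.12 in PR-957. Its groups did not overlap, yet the log2 fold change of -0.33 ± 0.24 (SE) had an adjusted p of 0.805 by edgeR. The share of all loci whose groups do not overlap was not counted. The third, chr1:148522537-148523487 near PPIAL4G, had 5.58 and 6.05 in DMSO and 5.72 and 5.78 in PR-957, and 3 near-identical copies elsewhere make its position uncertain.

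The locus chr8:47840674-47843152 in an intron of PRKDC, the catalytic subunit of DNA-dependent protein kinase, had 5.56 and 4.56 in DMSO and 4.47 and 5.06 in PR-957. A locus 87.1 kb from RBMS3, an RNA-binding protein, at chr3:28952335-28953249 had 3.901 and 6.12 in DMSO and 3.804 and 2.58 in PR-957. Its counts were only 32 to 53. The groups did not overlap there either, and the adjusted p was 0.639 by edgeR. The locus chrX:4239283-4241717 stood out by its isolation, 526 kb from PRKX, the nearest gene, and 443 kb from H3K4me1. Its level was steady, at 4.79 and 4.70 in DMSO and 4.56 and 4.63 in PR-957. The remaining 4, with ANKRD62, COMMD3, TPTE and SCEL as nearest genes, had DMSO means between 4.06 and 4.39 CPM per kb. The locus assigned to TPTE, on the short arm of chromosome 21, was 2284 kb from that gene and had H3K4me1 2.22 kb away. With 4 near-identical copies, it is likewise uncertain in position.

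PR-957 gave no call among the H3K4me-negative loci. Of the 6315, 6288 passed the filter on low counts, and 0 passed an adjusted p of 0.05 by edgeR's quasi-likelihood test, where 0.238% of all 74510 tested intervals did. At an unadjusted p under 0.05 there were 295, or 4.69%, against 8.01% of all tested intervals. Counted by the widest interval per locus, the share was 5.62% of H3K4me1-positive loci and 7.11% of all loci. The adjusted threshold was passed by 6 of 6258 H3K4me1-positive loci and 50 of 30621 of all loci. DESeq2 also called 0 H3K4me-negative loci, with 99 at an unadjusted p under 0.05. It gave no adjusted p for the 4 loci with the smallest p by edgeR, so its 0 does not test them. The median standard error of the log2 fold change was 0.42, so only large changes could have been detected at this depth. In 6141 of the tested loci (97.7%) the fitted log2 fold change lay within 1 of 0, against 98.1% of H3K4me1-positive loci and 98.7% of all loci.

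The median log2 fold change over the tested loci was 0.11, while the median over all tested intervals was -0.00. A value above 0 was found at 3836 of the loci (61.0%), against 54.7% of H3K4me1-positive loci and 53.6% of all loci. All intervals had the same trend with the count. At a mean count under 20 the median was 0.51 for H3K4me-negative loci and 0.47 for all intervals. At 20 to 30 it was 0.19 and 0.21, at 30 to 50 0.03 and 0.02, and at 50 to 100 -0.07 and -0.05. At 100 or more it was -0.08 over 171 loci and -0.01 over all intervals. With cyclic loess offsets, which remove a trend with the count, the median of the loci was -0.01. The sign of the median therefore depends on the scaling. The ratio of the median level to that of H3K4me1-positive loci was 0.771 ± 0.00715 in DMSO and 0.812 ± 0.0114 in PR-957 (SD, n = 2 each), without overlap, and the exact two-sided permutation test gave p = 0.333, the smallest possible with 2 against 2.

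The 4 loci with the smallest p had lower values in PR-957, none past the threshold. The first, chr2:218641359-218645628, overlaps a coding exon of ZNF142, 5.50 kb from PLCD4, a phospholipase C. Its counts were 96 and 53 in DMSO and 34 and 43 in PR-957, a level of 1.48 ± 0.318 against 0.755 ± 0.0656 CPM per kb (SD, n = 2 each). The log2 fold change was -0.99 ± 0.28 (SE), with an adjusted p of 0.116 by edgeR. In an intron of RNF144A, a ubiquitin ligase, chr2:7027555-7030223 had counts of 76 and 33 against 20 and 27, with a log2 fold change of -1.23 ± 0.36 and an adjusted p of 0.138 by edgeR. The groups did not overlap in either locus, but the DMSO libraries differed widely.

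The third, chr8:141904713-141910128, is 370 kb from TSNARE1 and overlaps H3K27me3. It had the closest replicates, 2.01 and 2.31 CPM per kb in DMSO and 1.37 and 1.32 in PR-957, with a log2 fold change of -0.67 ± 0.20 and an adjusted p of 0.145 by edgeR. The last, chr8:123463310-123466706 in an intron of NTAQ1, an amidase of the N-degron pathway, had counts of 76 and 26 against 24 and 17. Its difference rested largely on the first DMSO library, with a log2 fold change of -1.29 ± 0.39 and an adjusted p of 0.154 by edgeR.

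H3K27me3 calls at these loci were a smaller share than over all intervals in the main fit, but a larger share under other scalings. Their number also depended on the fit. The 876 loci overlapped 1839 H3K27me3 intervals, of which 1778 were tested, and edgeR called 63, or 3.54%, against 5.92% of all 31806 tested intervals. Of these, 34 were higher with PR-957 (1.91%, against 0.824% of all intervals) and 29 were lower (1.63%, against 5.09%). Since intervals of a locus overlap, the calls belong to 27 of the 866 H3K27me3 loci (3.12%), with 16 higher and 11 lower. Over all 13899 H3K27me3 loci, 550 (3.96%) held a call, with 117 higher and 433 lower. The median log2 fold change was 0.12 at the 1778 intervals and 0.02 over all. The split depends on the scaling, with 185 higher and 12 lower by library size alone, which moves the median of all intervals to 0.18, and 101 higher and 9 lower with cyclic loess offsets. Over all intervals these scalings gave 1514 higher and 703 lower and 797 higher and 965 lower, against 262 and 1620. The share called was then larger at the loci than over all intervals. It was 197 of 1778 against 2217 of 31806 by library size alone, and 110 of 1778 against 1762 of 31806 with loess offsets. By DESeq2 the split at the loci was 14 higher and 14 lower. Leaving out 1 library gave more lower than higher calls each time, with 6 higher and 13 lower (DMSO replicate 1 left out), 13 and 17 (DMSO replicate 2), 8 and 34 (PR-957 replicate 1) or 16 and 21 (PR-957 replicate 2). The fit with the replicate number as a block called 14 higher and 15 lower.

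The 4 H3K4me-negative loci with the highest H3K27me3 level in DMSO met H3K27me3 loci of 18.2 kb near MAFA, 92.8 kb near PTK2, 32.2 kb near LHX3 and 104 kb in LMX1B. The choice by DMSO values can by itself favour lower values in PR-957. The intervals measured near MAFA and LHX3 reached only the edge of the H3K27ac locus. Those near PTK2 (chr8:141010400-141075370) and in LMX1B (chr9:126602513-126697607) were far wider than it, so their values average over the surrounding domain. At chr8:143433912-143443634, in an intron of ZC3H3 and 3.18 kb from MAFA, a transcription factor of pancreatic beta cells, the overlapping H3K27me3 interval had 54.2 and 54.2 CPM per kb in DMSO and 51.3 and 49.6 in PR-957. The adjusted p was 0.196 by edgeR. At chr8:141020671-141022776, 18.5 kb from PTK2, which encodes focal adhesion kinase, H3K27me3 of the overlapping interval fell from 32.8 and 31.7 to 24.96 and 24.1. Its log2 fold change was -0.39 ± 0.04 (SE), with an adjusted p of 3.19e-14 by edgeR.

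At chr9:136175012-136176999, 24.7 kb from LHX3, a homeobox factor of the pituitary and motor neurons, H3K27me3 was 20.3 and 21.0 in DMSO and 20.1 and 19.1 in PR-957. Its adjusted p was 0.507 by edgeR. LMX1B is a homeobox factor of limb and kidney. At chr9:126660806-126663053, in an intron of this gene, H3K27me3 of the overlapping interval fell from 20.2 and 20.2 to 17.0 and 16.1. The log2 fold change was -0.29 ± 0.04, with an adjusted p of 1.34e-08 by edgeR. H3K27ac at the much narrower H3K27ac locus was 1.25 and 1.03 in DMSO and 0.806 and 1.13 in PR-957, and its groups overlapped. At the PTK2 locus H3K27ac was 0.971 and 0.910 against 0.813 and 1.27, again overlapping. Over the 27 H3K27me3 loci with a call, higher and lower together, the median H3K27ac log2 fold change at the loci they met was 0.12. It was 0.11 over all tested H3K4me-negative loci and 0.15 over those that overlap H3K27me3.

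Genes of the myeloid and KMT2A programmes were nearest to a smaller share of these loci than of H3K4me1-positive loci. The gene lists were not compared with all H3K27ac loci. Of 26 myeloid genes, 8 were the nearest gene of 28 H3K4me-negative loci (0.443%), and 11 of these loci were within 100 kb. H3K4me1-positive loci numbered 48 (0.765%) at 15 of the genes, 31 of them within 100 kb. MYC, on chromosome 8, had 15 and 13 of the 2 kinds, and 3 of the 15 were within 100 kb. CEBPB had 3 and 7, RUNX1 1 and 8, and CSF3R 3 and 1. Of 21 KMT2A target genes, of which RUNX2 is on both lists, 3 had 6 H3K4me-negative loci (0.0950%), against 22 H3K4me1-positive loci (0.351%) at 7 genes. CDK6, a cell cycle kinase, had 0 and 9, and MEIS1, a homeobox cofactor, 0 and 3. Of 13 NFE2L2 targets of the antioxidant response, 3 had 4 loci, against 7 at 5 genes, and of 9 AP-1 genes FOSL2 had 1 locus, against 10 at FOS and FOSL2. None of these loci passed the threshold for PR-957.

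The nearest myeloid locus, chr5:150102900-150104823, was in an intron of CSF1R, the receptor of macrophage colony-stimulating factor, 8.55 kb from its TSS. Its level was 0.866 and 1.26 CPM per kb in DMSO and 0.837 and 1.17 in PR-957. An H3K4me1 interval began only 0.581 kb away. In an intron of RUNX1, chr21:34815294-34818513 had 0.846 and 0.720 in DMSO and 0.938 and 1.36 in PR-957, with H3K4me1 1.20 kb away. The RUNX1 groups did not overlap, and the adjusted p was 0.759 by edgeR. The locus chr1:36513208-36515757, 29.9 kb from CSF3R, the receptor of granulocyte colony-stimulating factor, had H3K4me1 0.166 kb away. Its level was 0.653 and 1.07 in DMSO and 1.18 and 1.05 in PR-957. These 3 loci thus bordered on H3K4me1 intervals, unlike the median locus. A locus 42.0 kb from CEBPB, at chr20:50232790-50235420, had 0.633 and 0.843 against 0.842 and 1.02.

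Among KMT2A targets, the locus chr9:125960403-125961732 in an intron of PBX3, a homeobox cofactor, had counts of 14 and 3 in DMSO and 22 and 34 in PR-957. The groups did not overlap, but the log2 fold change of 1.67 ± 0.64 (SE) rested on few counts and had an adjusted p of 0.3895 by edgeR. The locus chr6:45512288-45515037 in an intron of RUNX2, a Runt factor, had 1.16 and 0.880 CPM per kb in DMSO and 0.696 and 0.922 in PR-957. The locus chr20:58814876-58816542, 23.2 kb from GNAS, a G protein subunit, overlaps H3K27me3 and had 1.41 and 0.968 against 0.604 and 1.01. In both the groups overlapped.

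Of the NFE2L2 targets, SRXN1, which encodes sulfiredoxin, had 2 loci at chr20:634256-636087 and chr20:639907-641852, and both overlap H3K27me3. Their DMSO means were 0.758 ± 0.215 and 1.09 ± 0.659 CPM per kb, and their PR-957 means 0.983 ± 0.458 and 1.10 ± 0.0869 (SD, n = 2 each). The locus chr16:83921663-83924921, 6.39 kb from OSGIN1, an oxidative stress gene, had 0.650 and 0.866 against 0.587 and 0.950. In an exon of FOSL2, an AP-1 subunit, chr2:28412341-28414295 had 0.891 and 1.29 in DMSO and 1.60 and 1.66 in PR-957. The FOSL2 groups did not overlap, and the log2 fold change of 0.60 ± 0.42 had an adjusted p of 0.787 by edgeR.

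The values at the limits of the definition were as follows. The 2 loci closest to a TSS, both at 2001 bp, were near CRYGN and SLFNL1 with DMSO means of 1.36 and 1.63 CPM per kb. The 2 left out at 1995 bp, near INSYN1 and SCN2B, had 0.688 and 0.709. The 2 widest loci, of 9985 and 9972 bp in FBRSL1 and MEGF6, had 1.22 and 1.19. The 2 narrowest left out, of 10065 and 10107 bp near CST7 and in KDM4B, had 1.67 and 1.25.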

How the data were processed

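Read counts were deposited by the authors as 1 table per Cut&Tag library (hg38), with 1 raw count per listed interval. The submitters' processing notes name Trimmomatic 0.39, Bowtie2 2.2.5, Picard 2.27.1, SAMtools 1.7, deepTools 3.5.1 and the peak caller SEACR 1.3. Listed intervals of a mark overlap each other, so totals count some reads more than once. Interval coordinates follow the deposited tables, and those of sequences count from 1; no sequence is shown from chromosome 8.

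H3K27ac intervals were merged into loci and compared with GENCODE release 44, using the TSS of every transcript of protein-coding genes. Each locus took the count of its widest interval. Differences between PR-957 and DMSO were tested by edgeR 4.0.16 (R 4.3.3) with the quasi-likelihood test, TMM factors and a filter at a minimum count of 10 over all intervals of a mark, with Benjamini-Hochberg adjustment at 0.05. The scripts were tested on simulated data. DESeq2 1.42.0, limma 3.58.1 (loess), other scalings, filters and definitions were alternatives. Near-identical copies (90% identity over 50% of the interval) were found with minimap2 2.31. Python 3.11.15 was used for the remainder.

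Loci and gene lists were chosen with earlier results of these data known. Named loci were the 10 with the highest H3K27ac level in DMSO, the 4 with the smallest p because fewer than 6 passed, the 4 with the highest H3K27me3, up to 4 per gene list within 100 kb, and those at the limits. Same-numbered replicates did not deviate together, so the numbers were not treated as pairs. The result for 1 B-cell marker gene is not reported here.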

Additional observations from a re-analysis of the deposited data

How the results depend on the processing

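The median H3K27ac level of the H3K4me-negative loci (1.12 to 1.16 CPM per kb) and their number (5325 to 8554) stayed within the replicate spread or 1.5 times under 7 alternatives each. The share that overlapped H3K27me3 was 12.3% with 1 TSS per gene, 10.4% when at least 50% of the locus had to be covered and 23.8% at loci of 4 or more intervals; these 3 were chosen after seeing the data. The number of loci called for H3K27ac was 0 under 18 of 20 alternatives, and 1 with 1 TSS per gene. On leaving out 1 library at a time it lay between 0 and 1, the call being a locus near CLEC3B without PR-957 replicate 2 that had been filtered out with all libraries. The median H3K27ac log2 fold change was -0.013 with cyclic loess offsets, -0.056 at a mean count of at least 50 and -0.10 at loci of 4 or more intervals, and it ranged from 0.037 to 0.13 on leaving out 1 library at a time. For all H3K27ac intervals, 177 calls became 40 with 1 interval per locus and 85 with DESeq2, and 23 to 89 with a library left out, the fewest without PR-957 replicate 2.

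For H3K27me3 at the loci, 63 calls became 197 by library size only, 110 with cyclic loess offsets, 29 with the replicate block and 28 with DESeq2, and 19 to 42 with a library left out. Over all H3K27me3 intervals, 1882 calls lay between 1168 and 1518 with a library left out, while library size alone gave 1514 higher and 703 lower against 262 and 1620. The causes were not tested. With the replicate block, 0 H3K4me-negative loci were called for H3K27ac, 195 of all H3K27ac intervals and 1324 of all H3K27me3 intervals, with a median log2 fold change of 0.09 at the loci. Same-numbered libraries did not deviate together. The replicate difference in DMSO and that in PR-957 had a correlation over intervals of -0.0089 for H3K27ac and -0.0069 for H3K27me3. The 4 named loci with the smallest p stayed lower in PR-957 and without a call under each alternative that could test them, with adjusted p between 0.069 and 0.948. DESeq2 called 0 H3K4me-negative loci but gave no adjusted p for these 4. Counts of 25 to 38 per locus and library limit what could be detected.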
